A study of Caenorhabditis elegans with 5 samples.

Results

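The genes described here are 10 regulators of the *C. elegans* germline that control stem cell proliferation, entry into meiosis and the switch from sperm to oocytes, out of 25393 genes listed in the table. The rule that chose them names symbols and uses no measured value, and all 10 were found. The tamoxifen group was 3 libraries of whole wild-type N2 animals grown on agar with 400 µM tamoxifen, and the citrate group was 2 libraries of N2 animals on 400 µM citrate. Both groups fed on *E. coli* HT115 after synchronization by L1 arrest, and both were labelled 48 h and L4. The study delayed the collection of tamoxifen animals to match their slower development, so that treatment and time of collection cannot be told apart. Levels are Cel-seq2 tags scaled to the same total in every library (CPM), and since this method counts mRNA at its 3′ end, they involve no gene length.

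In the hermaphrodite gonad, the distal tip cell presents a Notch ligand to nearby germ cells, whose receptor GLP-1 keeps them dividing. The RNA-binding proteins FBF-1 and FBF-2 hold mRNAs of meiosis and of sperm fate silent in these cells, while GLD-1, GLD-2, GLD-3 and NOS-3 act in the pathways by which germ cells leave mitosis and enter meiosis. FOG-1, FOG-3 and FEM-3 direct germ cells to become sperm in late larvae, and repression of *fem-3* mRNA, in which FBF and NOS-3 take part, allows the change to oocytes.

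The libraries differed in depth by 21.5-fold, from 1782371 tags in tamoxifen replicate 3 to 38276144 in tamoxifen replicate 2. Changes were tested by limma on log2(CPM + 1) in the 8325 genes that reached 5 CPM in 2 or more libraries. A gene was called at a Benjamini-Hochberg adjusted p under 0.01 with more than a 2-fold change, and 388 genes were called higher and 230 lower. The median log2 fold change over all tested genes was 0.24, and it was -0.01 after median-of-ratios scaling, where 151 genes were called higher and 405 lower. Calls that were higher made up 62.8% as deposited and 27.2% after that scaling. Without citrate replicate 1 the counts as deposited were 4 and 1, without tamoxifen replicate 1 they were 21 and 60, without tamoxifen replicate 3 they were 44 and 97, and without citrate replicate 2 they were 561 and 153. Wherever a citrate library is left out, the single one that remains is assumed to vary like the tamoxifen group. An exact two-sided permutation test of a single gene cannot give a p below 0.1 with 3 libraries against 2.

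Of the 10 regulators, 9 reached the level tested, and *fem-3* alone was called, higher in tamoxifen, where 4.66% of all tested genes were called higher. None of the 9 was called lower by limma, edgeR or DESeq2, against 2.76% of all tested genes by limma, and by limma 0 of them were lower at an unadjusted p under 0.05, against 14.9% of all tested genes. An unadjusted p under 0.05 with a higher level was found for 5 regulators, *fem-3*, *fog-1*, *gld-1*, *glp-1* and *nos-3*, and for 29.7% of all tested genes. All tamoxifen libraries lay above both citrate libraries for 6 of the 9, and 39.4% of all tested genes did so. The tamoxifen libraries all lay below both citrate libraries for *fbf-2*, as for 20.8% of all tested genes. The median log2 fold change of the 9 was 0.74, which is 0.50 above the median of all tested genes. The citrate libraries also differed, where citrate replicate 2 exceeded citrate replicate 1 in 8 of the 9 regulators, by a median of 0.63 over the 9 on the log2 scale, against a median of 0.13 over all tested genes. The part of this difference in the results was not tested.

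**Figure D1:**
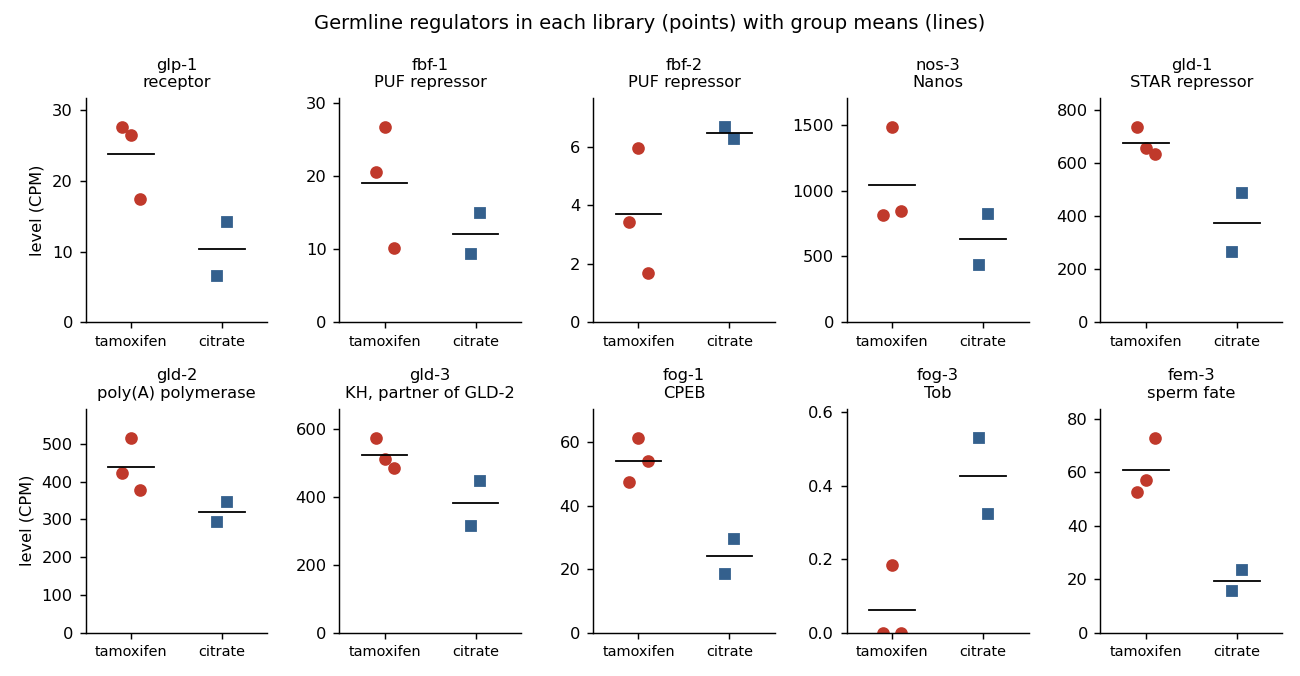
Level of each of the 10 regulators in CPM (vertical axis from 0, a scale of its own per panel) in the 3 tamoxifen libraries (red circles) and the 2 citrate libraries (blue squares), with group means as lines. *fem-3* lies between 52.7 and 72.9 CPM in tamoxifen and at 15.5 and 23.5 CPM in citrate, while *fbf-1* and *nos-3* overlap between the groups.

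The sperm-promoting gene *fem-3* (IV, 9104966 to 9107607, forward strand), whose protein works with FEM-1 and FEM-2 to direct male fate, had 52.7, 57.2 and 72.9 CPM in the tamoxifen libraries, against 15.5 and 23.5 CPM in the citrate libraries. Every tamoxifen library was above both citrate libraries. It averaged 60.9 ± 10.6 CPM in tamoxifen (SD, n = 3) and 19.5 ± 5.64 CPM in citrate (SD, n = 2), and its log2 fold change was 1.61 with a standard error of 0.31 (limma adjusted p = 0.00512). Less the median of all genes tested, the log2 change of *fem-3* was 1.37. The call held in edgeR and DESeq2 on recovered tags (adjusted p = 0.00898 with edgeR and 0.000322 with DESeq2) and after median-of-ratios scaling (limma adjusted p = 0.00829). It was lost when tamoxifen replicate 1, tamoxifen replicate 3 or citrate replicate 1 was left out, with log2 fold changes of 1.71, 1.47 and 1.32. The limma adjusted p was 0.0183 without tamoxifen replicate 1 and 0.0183 without tamoxifen replicate 3. The call was also lost after thinning the libraries to the same depth, without a mean trend and without a filter (limma adjusted p = 0.0117, 0.0139 and 0.0825).

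*fog-1* (I, 3211046 to 3217267), a cytoplasmic polyadenylation element-binding (CPEB) protein required for sperm fate, had 47.3, 61.3 and 53.9 CPM in tamoxifen, against 18.5 and 29.5 CPM in citrate. All tamoxifen values were above both citrate values. The log2 fold change was 1.17 (95% confidence interval 0.50 to 1.84), past 2-fold, but the limma adjusted p of 0.0160 was not past the limit of 0.01.

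*fog-3* (I, 10016765 to 10018121), a Tob family protein that works with FOG-1, was below the level tested. It had 0, 7 and 0 tags in tamoxifen replicates 1, 2 and 3, against 10 and 3 tags in citrate replicates 1 and 2. In CPM, these tags are 0.183 in tamoxifen replicate 2 and 0.530 and 0.323 in the citrate libraries. A count of 0 allows up to 0.854 CPM in tamoxifen replicate 1 and 1.68 CPM in tamoxifen replicate 3, by counting error only, so a difference from citrate was not detectable at this depth in those libraries. *fog-3* was near the limit of detection in every library, while its partner *fog-1* had at least 96 tags in each.

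The Notch receptor gene *glp-1* (III, 9092241 to 9099698) had 27.6, 26.6 and 17.4 CPM in tamoxifen, against 6.46 and 14.1 CPM in citrate. The groups did not overlap, but the lowest tamoxifen library was closer to the higher citrate library than the citrate libraries were to each other. Its log2 fold change was 1.20 (95% confidence interval 0.40 to 1.996, limma adjusted p = 0.0289), and it was 0.69 without citrate replicate 1 and 1.71 without citrate replicate 2.

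Genes that act with GLP-1 were tested next. *sygl-1* and *lst-1* are direct transcriptional targets of GLP-1 signalling in germline stem cells. *sygl-1* had 422, 350 and 376 CPM in tamoxifen, against 68.3 and 125 CPM in citrate, and it rose, with a log2 fold change of 2.04 and a standard error of 0.29 (limma adjusted p = 0.00140). It stayed past the threshold after median-of-ratios scaling at 1.77, and lost the call without tamoxifen replicate 1 or citrate replicate 1 (limma adjusted p = 0.0118 and 0.0258). *lst-1*, singled out after its values were seen as the other such target, had 137, 118 and 126 CPM in tamoxifen, against 34.7 and 73.4 CPM in citrate, with a log2 fold change of 1.31 that missed the threshold (limma adjusted p = 0.0123). Its groups did not overlap. The ligand gene *lag-2*, which the distal tip cell expresses, had 7.97, 7.65 and 12.3 CPM in tamoxifen, against 1.48 and 6.36 CPM in citrate (log2 fold change 1.24, limma adjusted p = 0.0560). Over the list of 14 genes for GLP-1/Notch ligands, processing enzymes, nuclear effectors and targets, 11 were tested. Among them *sygl-1* alone was called higher and none was called lower, against 4.66% and 2.76% of all tested genes. The median log2 fold change of the 11 was 1.11, against 0.24 over all tested genes.

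Neither gene of the *fbf* pair passed the threshold. *fbf-1* (II, 6078263 to 6080843) had 20.5, 26.6 and 10.1 CPM in tamoxifen, against 9.27 and 14.9 CPM in citrate. The groups overlapped, and the log2 fold change of 0.55 (95% confidence interval -0.31 to 1.41) was not past the threshold (limma adjusted p = 0.296). Without tamoxifen replicate 3 it was 0.93, without tamoxifen replicate 2 it was 0.27, without citrate replicate 1 it was 0.24 and without citrate replicate 2 it was 0.87. After median-of-ratios scaling it was 0.31. *fbf-2* (II, 6088863 to 6091480) had 3.42, 5.96 and 1.68 CPM in tamoxifen, against 6.67 and 6.25 CPM in citrate. All tamoxifen values lay below both citrate values, though tamoxifen replicate 3 rests on 3 tags and tamoxifen replicate 1 on 12. The log2 fold change of *fbf-2* was -0.78 (95% confidence interval -1.75 to 0.20, limma adjusted p = 0.197), and it was -0.43 without tamoxifen replicate 3 and -1.12 without tamoxifen replicate 2. The ratio of *fbf-2* to *fbf-1* CPM was 0.167, 0.224 and 0.167 in the tamoxifen libraries, against 0.720 and 0.420 in the citrate libraries. These ratios were chosen after the levels were seen and were not tested. The genes are close paralogs, between which the counting may have split tags.

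*nos-3* (II, 9746316 to 9750462), a Nanos family protein that binds FBF, had 813, 1481 and 842 CPM in tamoxifen, against 436 and 824 CPM in citrate. Tamoxifen replicate 1 was below citrate replicate 2, so the groups overlapped, and tamoxifen replicate 2 stood above all others. The log2 fold change was 0.74 (95% confidence interval 0.09 to 1.40, limma adjusted p = 0.0783). It was 0.29 without citrate replicate 1, 1.20 without citrate replicate 2, 0.46 without tamoxifen replicate 2 and 0.48 after median-of-ratios scaling.

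The repressor gene *gld-1* (I, 7695681 to 7698222), a STAR family protein that silences maternal mRNAs in the meiotic germline, had 736, 658 and 633 CPM in tamoxifen, against 265 and 486 CPM in citrate. The groups did not overlap. Its log2 fold change of 0.91 (95% confidence interval 0.34 to 1.48) was under 2-fold, with a limma adjusted p of 0.0237. Leaving out citrate replicate 2 brought it past the threshold, at 1.35 (limma adjusted p = 0.00428), and leaving out citrate replicate 1 took it to 0.47.

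*gld-2* (I, 6369748 to 6386194) encodes a cytoplasmic poly(A) polymerase and *gld-3* (II, 7132643 to 7137522) its KH-domain partner, which acts against FBF at *fem-3*. *gld-2* had 422, 516 and 377 CPM in tamoxifen, against 294 and 347 CPM in citrate. *gld-3* had 574, 511 and 485 CPM in tamoxifen, against 316 and 446 CPM in citrate. For both genes all tamoxifen values were above both citrate values, by less than a factor of 2 between the means. The log2 fold changes were 0.44 for *gld-2* (95% confidence interval -0.08 to 0.97, limma adjusted p = 0.170) and 0.48 for *gld-3* (95% confidence interval -0.04 to 0.99, limma adjusted p = 0.141). After median-of-ratios scaling they were 0.18 for *gld-2* and 0.21 for *gld-3*, and *gld-3* was at 0.23 without citrate replicate 1 and at 0.72 without citrate replicate 2. The ratio of *gld-2* to *gld-3* CPM was 0.841 ± 0.147 in tamoxifen (SD, n = 3) and 0.854 ± 0.107 in citrate (SD, n = 2), a difference smaller than the spread between libraries.

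**Figure D2:**
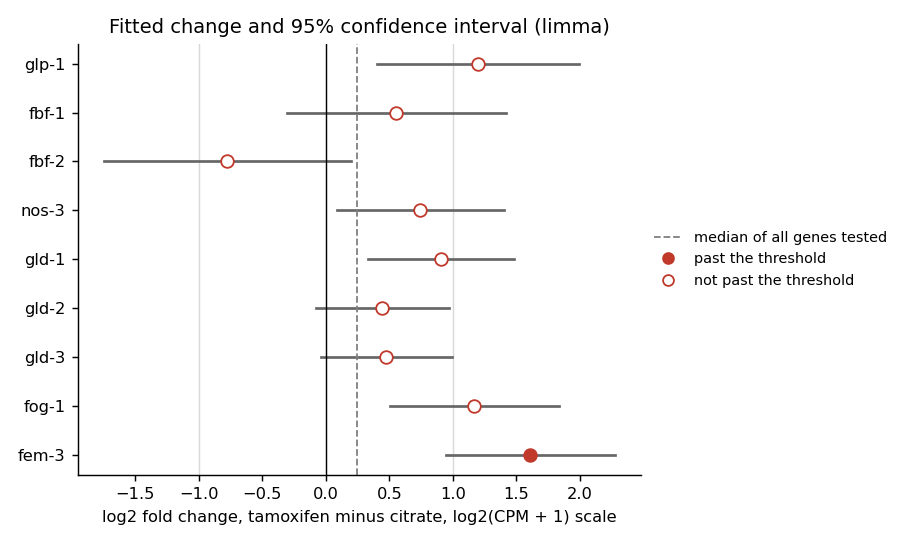
Fitted log2 fold change (tamoxifen minus citrate, log2(CPM + 1) scale) of the 9 regulators tested, with 95% confidence intervals from limma. The filled point, *fem-3* at 1.61, passed the threshold, and open points did not. The dashed line is the median of all tested genes at 0.24, grey lines mark a 2-fold change, and the intervals of *fbf-1*, *fbf-2*, *gld-2* and *gld-3* cross 0.

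Positions are those of Ensembl release 115 on WBcel235, and the build the authors counted against is not given in the sources used here. A coding gene on the other strand overlaps *glp-1* (*ZK507.1*), *fbf-1* (*H12I13.6*), *gld-2* (*klu-2*) and *nos-3* (*Y53C12B.7*), and the use of strand in counting is not given either. These 4 neighbours had between 0 and 4.84 CPM in the tamoxifen libraries and between 1.08 and 4.55 CPM in the citrate libraries.

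In bulk samples of whole animals, more germ cells and more RNA per germ cell cannot be told apart. The 7 pan-germline genes on the list, such as the germ granule genes *glh-1* and *pgl-1*, were therefore summed as a measure of germline RNA. They summed to 1205, 1230 and 1245 CPM in tamoxifen, against 447 and 827 CPM in citrate. All 7 had tamoxifen values above both citrate values, as 39.4% of all tested genes did. Of the 7, *glh-2* alone was called higher (log2 fold change 1.56, limma adjusted p = 0.00630), against 4.66% of all tested genes. None of the 7 was called after median-of-ratios scaling, after quantile normalization or with edgeR (adjusted p = 0.0105, 0.0108 and 0.0120 for *glh-2*). The same held without a filter and when any 1 tamoxifen library was left out. DESeq2 called 2, and limma called 3 after thinning to the same depth, with a filter of 20 CPM or with a pseudocount of 5. Over all tested genes, DESeq2 called 459 of 8325 higher. limma called 297 of 8456 higher after thinning, 396 of 5059 with the filter of 20 CPM and 413 of 8325 with the pseudocount of 5. The *glh-2* call was lost without citrate replicate 1, where its log2 fold change was 1.19, against 1.94 without citrate replicate 2. Set against this sum, *fem-3* had 43.7, 46.5 and 58.6 CPM per 1000 CPM of pan-germline genes in tamoxifen, against 34.7 and 28.4 in citrate. It was the only regulator whose relative level was above both citrate libraries in all tamoxifen libraries. This holds for the pan-germline sum only, whose genes had a median log2 fold change of 0.95, against 1.70 for the oocyte genes described below. The log2 fold change of *fem-3*, 1.61, was under that oocyte median. Levels relative to the oocyte genes were not computed. *gld-1* had a relative level of 551 ± 52.9 in tamoxifen (SD, n = 3) and 590 ± 2.87 in citrate (SD, n = 2), and *glp-1*, *fbf-1*, *nos-3* and *fog-1* overlapped between the groups likewise. The relative level of *fbf-2* was 2.84, 4.84 and 1.35 in tamoxifen, against 14.9 and 7.56 in citrate. *gld-2* and *gld-3* were also below both citrate libraries on this scale, with ratios of tamoxifen to citrate means of 0.664 and 0.686, and so was *fog-3*, which is at the limit of detection. For *gld-2* this rests on a margin of less than 1 unit, between 419.3 in tamoxifen replicate 2 and 419.7 in citrate replicate 2. These relative levels are a description and were not tested.

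**Figure D3:**
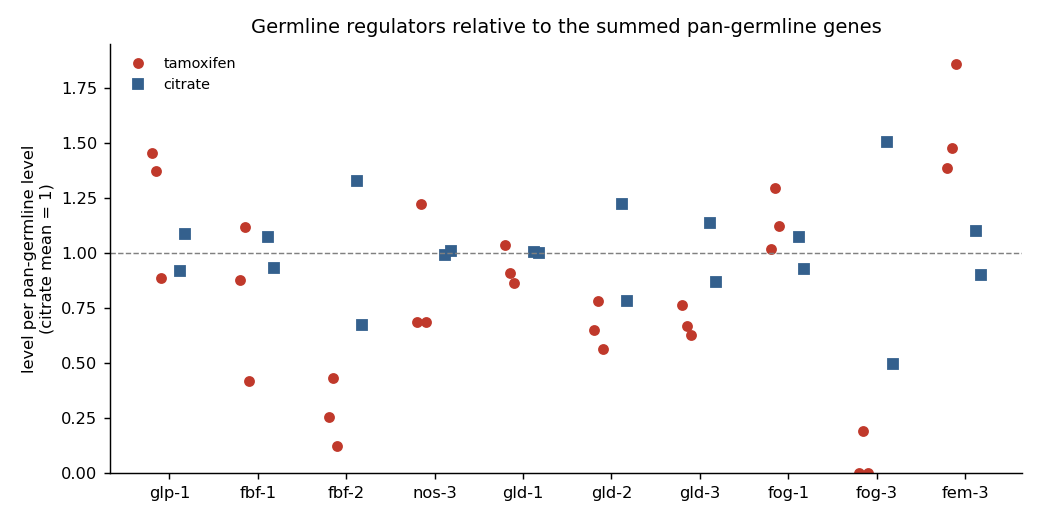
Level of each regulator divided by the summed level of 7 pan-germline genes in the same library, scaled so that the citrate mean is 1 (vertical axis from 0), for 3 tamoxifen (red circles) and 2 citrate libraries (blue squares). *fem-3* lies above the citrate libraries, and *fbf-2*, *gld-2*, *gld-3* and *fog-3* lie below them.

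All tested partners and paralogs of the FBF, GLD and NOS proteins had positive fold changes, most of them not past the threshold. A positive log2 fold change was also found for 60.1% of all tested genes, and the smallest of the list, 0.06, was under their median of 0.24. Of 22 listed genes 21 were found and 20 tested. Of the 20, 5 were called higher and 0 lower, against 4.66% and 2.76% of all tested genes. The median log2 fold change of the 20 was 1.02. The 5 were the PUF genes *puf-5*, *puf-7* and *puf-11* (log2 fold changes 1.70, 1.69 and 1.42), the translational regulator *daz-1* (1.47) and *gld-4* (1.03), a poly(A) polymerase related to *gld-2*. The limma adjusted p-values of *puf-5*, *puf-7*, *puf-11*, *daz-1* and *gld-4* were 0.00486, 0.00676, 0.00955, 0.00991 and 0.00996. *puf-5* also stands on the lists of GLD-1 targets and of oocyte genes below, and is counted again there. Of the other PUF genes listed, *puf-3* and *puf-6* were at 1.41 and 1.37 and missed the threshold (limma adjusted p = 0.0194 and 0.0119). *puf-8* and *puf-12* were at 0.29 and 0.06. After median-of-ratios scaling 1 of the list was called, and with edgeR 0. limma called 0 of them without tamoxifen replicate 1, tamoxifen replicate 3 or citrate replicate 1, 2 without tamoxifen replicate 2 and 8 without citrate replicate 2. *fog-2*, the partner of GLD-1 in repressing *tra-2*, had 40.1, 62.0 and 62.8 CPM in tamoxifen, against 22.5 and 40.7 CPM in citrate, so that the groups overlapped (log2 fold change 0.81, limma adjusted p = 0.0813).

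In the sex determination list, 14 of 20 genes were tested, and 2 were called higher and 0 lower, against 4.66% and 2.76% of all tested genes. The median log2 fold change of the 14 was 0.77. *fem-2*, a phosphatase that works with FEM-3, had 430, 377 and 398 CPM in tamoxifen, against 108 and 213 CPM in citrate (log2 fold change 1.40, limma adjusted p = 0.00656). *mog-1*, an RNA helicase needed for the change from sperm to oocytes, had 59.5, 43.97 and 88.1 CPM in tamoxifen, against 19.4 and 21.2 CPM in citrate (log2 fold change 1.55, limma adjusted p = 0.00737). Neither *fem-2* nor *mog-1* was called after median-of-ratios scaling, with edgeR, or by limma without tamoxifen replicate 1, tamoxifen replicate 3 or citrate replicate 1, and *mog-1* was not called without citrate replicate 2 (limma adjusted p = 0.0146). *tra-1*, the transcription factor at the end of the pathway, had 17.1, 8.99 and 30.9 CPM in tamoxifen, against 70.0 and 14.1 CPM in citrate, so that citrate replicate 1 stood apart from all others (log2 fold change -0.87, limma adjusted p = 0.242).

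Known mRNA targets of GLD-1 and of FBF were then counted. Of 14 GLD-1 targets, all tested, 7 were called higher and 0 lower, against 4.66% and 2.76% of all tested genes. The median log2 fold change of the 14 was 1.34. The 7 called included the yolk receptor gene *rme-2* (1.86), the oocyte maturation gene *oma-2* (1.93) and the embryonic fate regulators *pos-1* (1.58) and *mex-3* (1.501). Limma adjusted p-values were 0.00353 for *rme-2*, 0.00250 for *oma-2*, 0.00302 for *pos-1* and 0.00353 for *mex-3*. In this list, 1 gene passed the filter through its tamoxifen values alone, and 4 genes also stand on the oocyte list. Without citrate replicate 1 or tamoxifen replicate 1 limma called 0 of the GLD-1 targets, and without tamoxifen replicate 3 it called 1. Of 10 FBF targets other than the regulators themselves, 0 were called in either direction by limma, edgeR or DESeq2, with 4 higher and 0 lower at an unadjusted p under 0.05, against 29.7% and 14.9% of all tested genes. Their median log2 fold change was 0.54, and limma called 1 of them higher when citrate replicate 2 was left out.

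Markers of oocytes and of sperm were set beside the regulators. Of 11 oocyte genes 8 were called higher and 0 lower, against 4.66% and 2.76% of all tested genes. The median log2 fold change of the 11 was 1.70, and they summed to 6380, 6468 and 7130 CPM in tamoxifen, against 1654 and 3131 CPM in citrate. Beside *oma-2* and *rme-2*, the 8 called included the egg surface genes *egg-2* (2.15, limma adjusted p = 0.00118) and *egg-1* (1.84, limma adjusted p = 0.00342). The eggshell gene *cbd-1* (1.72, limma adjusted p = 0.00290) was another. Without citrate replicate 1, tamoxifen replicate 1 or tamoxifen replicate 3, limma called 0, 1 and 3 of the oocyte genes. In citrate replicate 2 all 11 oocyte genes exceeded their levels in citrate replicate 1, by a median of 1.053 on the log2 scale. Of 20 sperm genes, 14 were below the level tested. Among the 6 tested, 2 passed the filter through 1 group alone, *spe-29* through citrate and *spe-44* through tamoxifen. limma called 0 of the 6. At an unadjusted p under 0.05, 5 were lower, *spe-29* among them, and 0 higher, against 14.9% and 29.7% of all tested genes. edgeR called 1 and DESeq2 called 3 lower, against 426 and 780 of all 8325 tested genes. The sperm list summed to 46.7, 34.6 and 37.0 CPM in tamoxifen, against 78.6 and 80.8 CPM in citrate. Libraries labelled L4 held oocyte and eggshell mRNAs in both groups. The part of oocyte number or stage in the levels of the 10 regulators was not tested.

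Genes that define other tissues were counted as well. Of 6 somatic gonad genes 3 were tested and 0 called by limma, edgeR or DESeq2. By limma 1 was higher at an unadjusted p under 0.05, against 29.7% of all tested genes. This gene was *lag-2*, which also stands on the GLP-1/Notch list. *ehn-3* was at 0 in every library. Of 7 genes of intestine, muscle, epidermis and neurons 6 were tested and 0 called by limma, edgeR or DESeq2. By limma 1 was lower at an unadjusted p under 0.05, against 14.9% of all tested genes. The 7 genes summed to 382, 423 and 313 CPM in tamoxifen, against 511 and 609 CPM in citrate. Most of this sum was the muscle myosin gene *unc-54*, and the other 6 genes summed to 58.6, 40.5 and 63.4 CPM in tamoxifen, against 43.3 and 68.3 CPM in citrate, so that the groups overlapped.

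**Figure D4:**
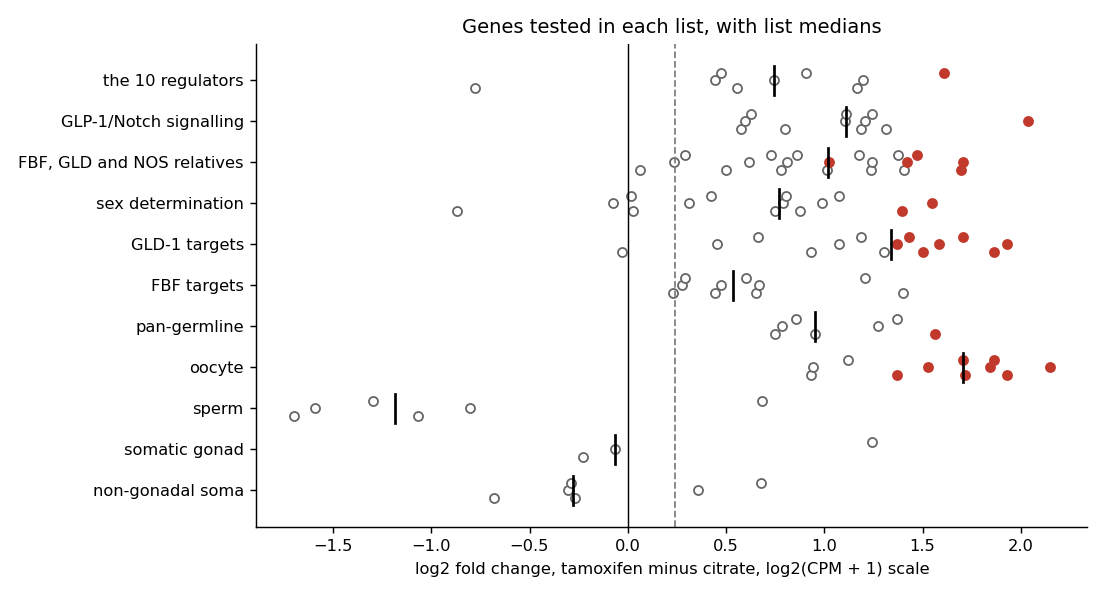
Log2 fold change (tamoxifen minus citrate, log2(CPM + 1) scale) of each gene tested in the 10 regulators and in 10 lists, with genes past the threshold filled in red and list medians as black bars. The dashed line is the median of all tested genes at 0.24. The oocyte median lies at 1.70, that of the 10 regulators at 0.74 over the 9 tested, and that of the 20 sperm genes at -1.18 over the 6 tested.

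Genes with the most similar profiles were taken as those with the smallest root mean square difference from a regulator over the 5 libraries, after each gene was centred on its mean log2(CPM + 1). The 2 nearest to *fem-3* were *C05C10.5* and *algn-1*, at 0.054 and 0.055 log2 units. Nearest to *glp-1* were *athp-2* at 0.048 and *C49H3.6* at 0.085, and nearest to *fog-1* were *pid-4* at 0.026 and *chk-1* at 0.047. The nearest to *gld-1* was *cpb-3*, a CPEB gene and paralog of *fog-1*, at 0.065, before *B0336.13* at 0.067. For *gld-2* they were *eral-1* at 0.018 and *aho-3* at 0.034, and for *gld-3* they were *rhy-1* at 0.039 and *rsp-1* at 0.041. *nos-3* was nearest to *pole-2* at 0.039 and *eif-2A* at 0.060, *fbf-1* to *npp-3* at 0.056 and *K12D12.4* at 0.058, and *fbf-2* to *F43B10.1* at 0.090 and *ptc-3* at 0.091. Over 5 libraries such likeness is a description only, and no regulator was among the 2 nearest of another.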

How the data were processed

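RNA of whole animals was measured by Cel-seq2 in 3 tamoxifen and 2 citrate libraries, assigned to groups by their titles. The authors deposited 1 table of values they call TPM, which sum to the same total in every library, use no gene length and were treated as CPM. The submitters' processing notes name Trimmomatic 0.32 and STAR, and the paper a DolphinNext pipeline. The genome build, the use of strand and the collapsing of molecular identifiers are not given in the sources used here. All values (100%) were whole multiples of 1 tag within a tolerance of 0.1 tags, and the recovered totals were 3512899, 38276144 and 1782371 tags in tamoxifen replicates 1 to 3, and 18882647 and 9277598 in citrate replicates 1 and 2. The filter of 5 CPM is 8.91 tags in the smallest library.

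The test was limma 3.58.1 in R 4.3.3, with a mean trend, no covariates and all 5 libraries, on log2(CPM + 1), a scale that understates the changes of low genes. The alternatives were edgeR 4.0.16 and DESeq2 1.42.0 on recovered tags, other pseudocounts, filters, scalings and thresholds, thinning, a replicate block and leaving out each library. edgeR called 148 genes higher and 426 lower on these tags. Scripts were tested on simulated data. Symbols were found for 25064 of 25393 genes, and *ntl-1* of the partner list was not matched. Named genes are the 10 regulators, up to 5 genes past the threshold with the largest change per list, and the 2 nearest profiles. *lst-1*, *lag-2*, *fog-2*, *tra-1*, *puf-3*, *puf-6*, *puf-8*, *puf-12*, *ehn-3*, *unc-54*, *spe-29*, *spe-44* and the pan-germline genes *glh-1*, *pgl-1* and *deps-1* fall outside this rule. They were named after their values were seen. The regulators, lists and tests were chosen with earlier results of these data known.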

Additional observations from a re-analysis of the deposited data

How the results depend on the processing

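Counts are genes higher and lower in tamoxifen, against 388 and 230 over all tested genes and 1 and 0 among the regulators. The causes were not tested. Over all genes they were 0 and 0 without a filter (4742 at an unadjusted p under 0.05), 151 and 405 after median-of-ratios scaling, 221 and 369 after quantile normalization, 31 and 46 without a trend, 148 and 426 with edgeR, 459 and 780 with DESeq2, and 1333 and 678 at an adjusted p of 0.05. With 1 library left out they ranged from 4 to 561 higher and from 1 to 154 lower, lowest without citrate replicate 1. With either citrate library left out, the other is assumed to vary like the tamoxifen group. Regulators called higher were 0 without a filter, without a trend and after thinning, 3 (*fem-3*, *fog-1* and *glp-1*) at an adjusted p of 0.05, and from 0 to 2 with 1 library left out. None was called lower under any of these settings.

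The replicate block gave 1044 and 599 over all genes and 3 and 0 among the regulators. Only tamoxifen has a replicate 3, so the block takes up that library. Its fitted changes equal those without tamoxifen replicate 3, as 1.475 for *fem-3* and 1.403 for *glp-1* under both. They are therefore not a separate alternative in the comparison of directions below. The libraries share only a number, with same-numbered deviations correlated at 0.12 and 0.32 over 2 pairs. Over 26 named genes and 17 alternatives, 0 of 441 fitted changes turned direction. Other filters, no trend and the adjusted p of 0.05 leave a fitted change as it is, so those comparisons could not turn. The genes besides the regulators and *lst-1* were also named for large called changes. *fog-3* was below the filter in every library, with 7 tags (0.183 CPM) in the deepest, tamoxifen replicate 2. *fbf-2* rested on 3 tags in tamoxifen replicate 3. Its log2 fold change was -0.79 after thinning, against -0.78 in the main fit.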
